A study of Mus musculus with 6 samples.

Results

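The microRNAs (miRNAs) of the Dlk1-Dio3 imprinted cluster were read from arrays of exosomal RNA. Members were the mouse probes whose name, without the arm suffix, was one of 46 listed miRNAs, and 90 probes of 45 miRNAs met this rule, of 1118 mouse miRNA probes in all. Each of the 45 had a probe for both arms of its hairpin, and mmu-miR-337 is not analysed here. Names are given below without the prefix for mouse, so that mmu-miR-382, mmu-miR-299a, mmu-miR-410 and mmu-miR-494, each with 1 tested arm, are written miR-382, miR-299a, miR-410 and miR-494. The cells were purchased mouse endothelial cells in serum-containing medium, kept for 48 h at 0.9 mM (normal) or at 3.5 mM (high) inorganic phosphate. Exosomes, small vesicles that cells release, came from the culture supernatant by differential centrifugation, with 3 arrays per group and the labels name no genetic change or other agent in either group. No label says that replicate arrays came from independent cultures, and the p-values then measure only the spread among arrays, possibly a technical one.

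A miRNA hairpin is cut into a duplex whose strands are named after the end they come from, 5p and 3p. One strand, the guide, usually stays in the silencing complex and the other is mostly degraded. The cluster lies in an imprinted region in which the miRNAs, together with the long RNAs Meg3, Rian and Mirg, are expressed from the maternally inherited chromosome, while Dlk1, Rtl1 and Dio3 are expressed from the paternal one. Its miRNAs are known from embryo, placenta and brain, and in mouse hindlimb ischaemia inhibitors of miR-329, miR-487b, miR-494 or miR-495 increased the growth of vessels.

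The sequences of the 7 cluster probes bright enough for the test between phosphate levels are shown because every one of them was a 5p arm. They are from RefSeq (GRCm38.p6, chromosome 12, plus strand), which gave a sequence for 86 of the 90 members, and the capitals mark the seed, bases 2 to 8, which pairs with target messages.
miR-382-5p: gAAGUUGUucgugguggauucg
miR-299a-5p: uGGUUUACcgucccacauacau
miR-410-5p: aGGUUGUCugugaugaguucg
miR-544-5p: uCUUGUUAaaaagcagagucu
miR-494-5p: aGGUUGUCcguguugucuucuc
miR-541-5p: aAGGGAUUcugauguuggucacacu
miR-665-5p: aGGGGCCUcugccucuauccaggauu
In genomic order they are miR-665-5p at chr12:109586331-109586356, miR-299a-5p at chr12:109710644-109710665, miR-494-5p at chr12:109715334-109715355, miR-544-5p at chr12:109729335-109729355, miR-382-5p at chr12:109733781-109733802, miR-541-5p at chr12:109742422-109742446 and miR-410-5p at chr12:109743729-109743749. In the RefSeq gene intervals, miR-665 lies within Rtl1, miR-541 and miR-410 lie within Mirg, and the other 4 hairpins lie between Rian and Mirg.

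The seed is shared by miR-410-5p and miR-494-5p, whose sequences, aligned at the 5′ end, are alike at 16 of the 21 positions compared. Of 83 different seeds among the 86 sequences, 2 others were shared, by miR-379-3p with miR-411-3p (20 of 22 positions alike) and by miR-376b-5p with miR-376c-5p (21 of 22 positions alike). The probe sequences were not among the files used here, so cross-hybridisation between such pairs was not tested. A stretch common to several arms was looked for after the sequences were seen, with the letters GGUUNNCC, on the RNA strand only. It was present in 13 of the 86 members (15.1%), 12 of them 5p arms, against 20 of 1679 mouse mature miRNAs in RefSeq (1.19%), a count that includes these 13. Because the letters were picked after these sequences were seen, the higher share among members is not a test. The 4 holders with the highest mean signal are shown with this stretch in capitals.
miR-299a-5p: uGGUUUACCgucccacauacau
miR-494-5p: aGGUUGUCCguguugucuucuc
miR-300-5p: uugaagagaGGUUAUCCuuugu
miR-154-5p: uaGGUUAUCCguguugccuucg
Holders were both bright and dim, and 2 of the 7 members bright enough for the test held the stretch. Of the 13 holders, 7 were above the median mouse probe on all 6 arrays. That compares with 28 of all 90 members and 42.2% of all mouse probes. Among the dim holders, miR-409-5p averaged 7.75 units and miR-154-3p 3.04 units. Whether brightness goes with the stretch was not tested.

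Signal here is foreground minus local background in scanner units, averaged over the 4 spots of a probe. A probe counted as bright on an array when it exceeded the 95th percentile of the array's viral miRNA probes (57 probes). That threshold lay between 1627 and 3233 units. The number of bright cluster probes was 7, 8 and 5 on the normal phosphate arrays, replicates 1 to 3, and 7, 6 and 9 on the high phosphate arrays. The members' groups overlapped, with means of 6.67 ± 1.53 (SD, n = 3) and 7.33 ± 1.53 (SD, n = 3). Over all mouse probes the counts were 125, 130 and 97 at normal and 105, 124 and 147 at high phosphate. Both counts were lowest on normal phosphate replicate 3, which had the highest threshold. Both were highest on high phosphate replicate 3, which had the lowest threshold. Bright on at least 3 arrays, and so tested, were 7 members (7.78%), against 129 of all mouse probes (11.5%). Another 3 members were bright on 1 or 2 arrays, and 80 were bright on none.

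Most of the cluster was dim, though most of its probes read above the Empty spots. Of the 90 probes, 74 exceeded the 95th percentile of the Empty spots (2 or 3 units) on all 6 arrays, and 7 on none, against 80.2% of all mouse probes on all 6. On the same arrays the 95th percentile of the viral probes was 1627 to 3233 units. Exceeding the Empty spots thus does not show that a miRNA was present. The mean signal was under 20 units for 32 members and at least 2000 units for 9. On each array the median member lay below the median mouse probe, at 31.9 to 57.3 units against 85.1 to 116 units. The members above the median mouse probe on all 6 arrays were 28, against 42.2% of mouse probes in all. Cluster probes held 2.80%, 3.33% and 3.24% of the summed mouse signal at normal and 4.41%, 3.12% and 4.18% at high phosphate. These shares overlapped, and since each probe has its own brightness per molecule they are shares of signal and not of RNA.

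The 5p and 3p arms differed in how often they were bright. Of 45 probes for 5p arms, 7 were tested and 8 were bright on any array. Of 45 probes for 3p arms, 0 were tested and 2, miR-673-3p and miR-434-3p, were bright on any array. Over all mouse probes, 14.5% of the 5p and 9.1% of the 3p probes were tested. At lower cutoffs the contrast between the members' arms was milder. Above the median mouse probe on all 6 arrays were 16 of the 5p and 12 of the 3p probes. Above the threshold of the Empty spots on all 6 were 40 and 34. None of the 45 hairpins had both arms tested. A hairpin's arms are read by different probes, each with its own brightness per molecule, so which strand was more abundant was not tested. The 3p arms of miR-410 and miR-494 are the ones usually described as guides. The miR-410-3p probe read between 156 and 290 units and the miR-494-3p probe between -1.8 and 7.2 units. Both were below the threshold on all 6 arrays. The other 3p partners were below it on every array too. They read 82.2 to 125.8 units for miR-382-3p, 91.2 to 192.5 units for miR-665-3p, 13.2 to 67.5 units for miR-541-3p, 5.8 to 11 units for miR-299a-3p and less than 0 units for miR-544-3p.

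**Figure D1:**
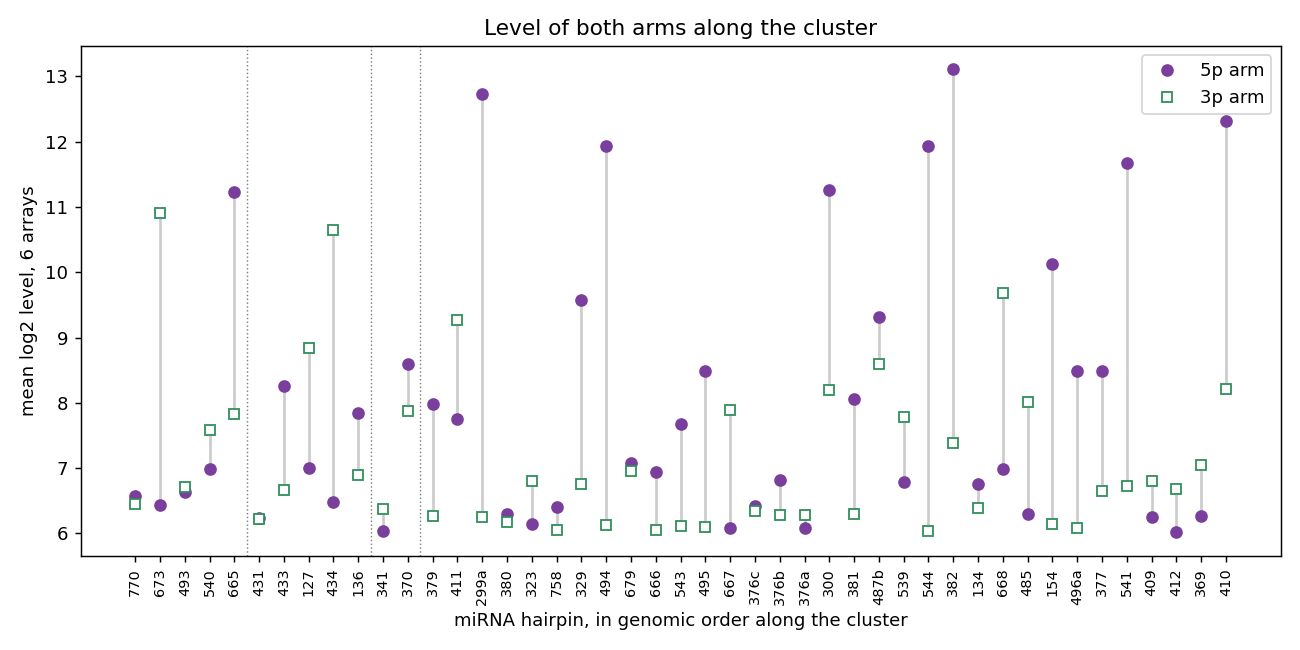
Mean log2 level over the 6 arrays (y axis) of the 5p probe (filled circle) and the 3p probe (open square) of each of 45 miRNAs, in genomic order along the cluster (x axis). Dotted lines separate the stretches miR-770 to miR-665, miR-431 to miR-136, miR-341 with miR-370, and miR-379 to miR-410. High points are scattered along the cluster, and the highest are 5p arms with a dim 3p partner.

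Along the chromosome, bright probes were not in 1 block. The stretch from miR-379 to miR-410 held 66 probes of 33 miRNAs, 6 of them tested, and the stretch from miR-770 to miR-665 held 10 probes, 1 of them tested. The stretch from miR-431 to miR-136, antisense to Rtl1, had 10 probes and 0 tested, and miR-341 and miR-370, within Rian, had 4 probes and 0 tested. Direct neighbours differed: miR-544-5p, miR-382-5p and their neighbour miR-134, known in mouse neurons for limiting dendritic spine size, stood next to each other, but the miR-134-5p probe read only 22.8 to 55.8 units. The miR-376a, miR-376b and miR-376c probes, whose miRNAs are known in mouse brain for RNA editing of the seed, reached at most 61.5 units on any of 6 probes and 6 arrays. For miR-127-3p, known for silencing Rtl1, the arrays read 303, 501 and 346 units at normal and 468, 405 and 386 units at high phosphate, so the groups overlapped.

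The cells' label was checked against marker miRNAs, and 11 of 24 marker probes were bright on all 6 arrays. By list these were 3 of 3 endothelial markers, 2 of 2 red cell, 1 of 1 liver, 2 of 3 striated muscle, 1 of 2 smooth muscle, 1 of 4 leukocyte, 1 of 5 epithelial and 0 of 4 neuronal ones. The 3 endothelial probes were both arms of miR-126a, from the same hairpin, and miR-10a-5p. The endothelial miR-126a-3p read 4603 to 9967 units, the red cell miR-451a 27144 to 48136 units, the liver miR-122-5p 8517 to 24575 units and the striated muscle miR-206-3p 21138 to 41251 units. Of the smooth muscle markers, miR-143-3p read 31607 to 57198 units, while the probe named for miR-145a-5p and miR-145b read 853 to 1885 units and was bright on none. Their part in the cluster's signal was not tested. Before scaling, the Hy3 control spots measured 9.32 ± 0.20 on the log2 scale (SD, n = 3) at normal and 8.63 ± 0.20 (SD, n = 3) at high phosphate, and 53 spike control probes 9.96 ± 0.11 and 9.32 ± 0.25 (SD, n = 3). Scaling to the spike controls moved the median log2 difference of all 129 tested probes to 0.42, to the Hy3 spots to 0.48, and without any scaling it was -0.22. Each log2 difference below is thus a shift against the bulk of the miRNA probes, not an absolute one. Each member's 4 spots lie in 2 sets of blocks, 1 to 18 and 19 to 36, and the sets differed by more than 2-fold for 35 and 33 of the 129 tested probes on high phosphate replicates 1 and 2, against 1 to 12 on the other arrays.

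No cluster miRNA passed the test between phosphate levels. Of 7 tested members 0 passed limma with Benjamini-Hochberg adjustment over all 129 tested probes (0% of all), and 1 had an unadjusted p under 0.05 (6.98% of all). The lowest adjusted p of a member was 0.616. A higher mean in high phosphate was found for 5 of the 7, against 48.1% of all tested probes, and the median log2 difference was 0.10 against -0.016 over all. That median became -0.087 without high phosphate replicate 1. For the 7 members, 95% intervals reached 0.68 (median) above and below the log2 difference, which is a factor of 1.60.

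The probe for miR-382-5p had the largest log2 difference of the tested members in size. It read 5998, 6040 and 11032 units at normal and 12495, 8298 and 9877 units at high phosphate. The groups overlapped through normal phosphate replicate 3, which lay above 2 of the high arrays. The log2 difference was 0.71 (SE 0.29), which is 1.63-fold (95% interval 1.02 to 2.61), with a limma adjusted p of 0.616. It was 0.37 with background subtraction, 0.46 with median scaling, 0.44 without normalization and 0.46 with the deposited values, all with an unadjusted limma p over 0.05, and was 1.08 by spike and 1.14 by Hy3 scaling. Spots of this probe did not agree on normal phosphate replicate 2, where the 2 spots in block 5 read 2725 and 1091 units and the 2 in block 23 read 10835 and 9507 units. With the spots of blocks 19 to 36 alone, an alternative chosen after seeing the data, the arrays read 5695, 10171 and 10037 units at normal and 13859, 9468 and 9405 units at high phosphate, and the log2 difference was 0.54 (SE 0.25, limma adjusted p = 0.583). With those of blocks 1 to 18 alone it was 1.16 (SE 0.65, limma adjusted p = 0.716).

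The probe for miR-299a-5p, whose human counterpart is reported to target the message of osteopontin, was the only tested member whose groups did not overlap. It read 8714, 7232 and 9448 units at normal and 7139, 5892 and 4043 units at high phosphate. All 3 high arrays lay below all 3 normal arrays, also after normalization, as was so in either direction for 10.1% of tested probes after and 14.0% before it. The log2 difference was -0.43 (SE 0.22), which is 0.745-fold (95% interval 0.519 to 1.07), with a limma adjusted p of 0.823. With scaling to the spike controls it turned to 0.039 and with scaling to the Hy3 spots to 0.094. A second probe carries the names miR-299a-5p and miR-299b-5p, falls outside the rule, and read 1196, 687 and 1261 units at normal and 809, 626 and 417 units at high phosphate, below the threshold on every array. Its groups overlapped by 1 array each, and its log2 difference in a fit of all 1118 mouse probes was -0.71 (SE 0.34, limma adjusted p = 0.776).

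The pair that shares a seed had separate patterns. For miR-410-5p the normal arrays were close together at 4915, 4654 and 4590 units, and the high arrays spread over 9733, 2992 and 5010 units. High phosphate replicates 1 and 3 lay above every normal array and replicate 2 below every one. The log2 difference was 0.28 (SE 0.39, limma adjusted p = 0.890) and became -0.087 without high phosphate replicate 1 and 0.72 when replicate 2 was dropped in its place. It was 0.075 with background subtraction, 0.79 by spike scaling and 0.85 by Hy3 scaling. For miR-494-5p the spread was in the other group, with 2369, 4910 and 3211 units at normal and 4542, 4423 and 3899 units at high phosphate. Normal phosphate replicate 2 exceeded every high array, and the log2 difference was 0.43 (SE 0.26, limma adjusted p = 0.853). It was 0.22 with normal phosphate replicate 1 left out and 0.67 with replicate 2 of that group left out. Background subtraction gave 0.27, spike scaling 0.98 (limma adjusted p = 0.256) and Hy3 scaling 1.04 (limma adjusted p = 0.0611).

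The remaining tested members overlapped widely. The arrays of miR-544-5p read 4804, 2885 and 4566 units at normal and 5952, 2869 and 3009 units at high phosphate, with a log2 difference of 0.0067 (SE 0.34, limma adjusted p = 0.999). It fell on either side of 0 as arrays were left out, at -0.29 without high phosphate replicate 1 and at 0.21 when replicate 2 was dropped in its place. Those of miR-541-5p read 3669, 3500 and 4127 units at normal and 3543, 1792 and 3522 units at high phosphate. The low array was high phosphate replicate 2, and the log2 difference of -0.30 (SE 0.32, limma adjusted p = 0.873) became 0.054 without it. With scaling to the spike controls it was 0.23 and to the Hy3 spots 0.28. For miR-665-5p, which lies apart from the others near the start of the cluster, the arrays read 1678, 2830 and 2408 units at normal and 1795, 3277 and 2306 units at high phosphate. Its log2 difference was 0.10 (SE 0.27, limma adjusted p = 0.948) and went to -0.12 once high phosphate replicate 2 was left out and to 0.30 once replicate 1 of that group was. It was 0.71 with spike and 0.76 with Hy3 scaling.

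**Figure D2:**
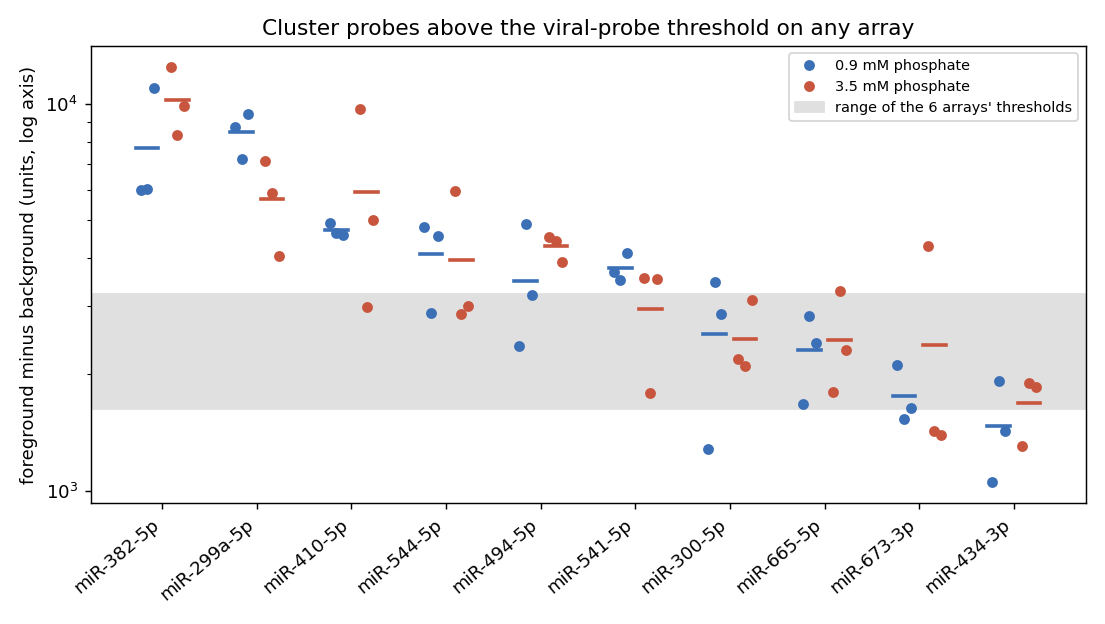
Foreground minus background (y axis, log scale) of the 10 cluster probes that exceeded the threshold on any array, with each array as a point and the group mean as a line, blue at 0.9 mM and red at 3.5 mM phosphate. The grey band spans the 6 arrays' thresholds, 1627 to 3233 units, and the groups stand apart only for miR-299a-5p.

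**Figure D3:**
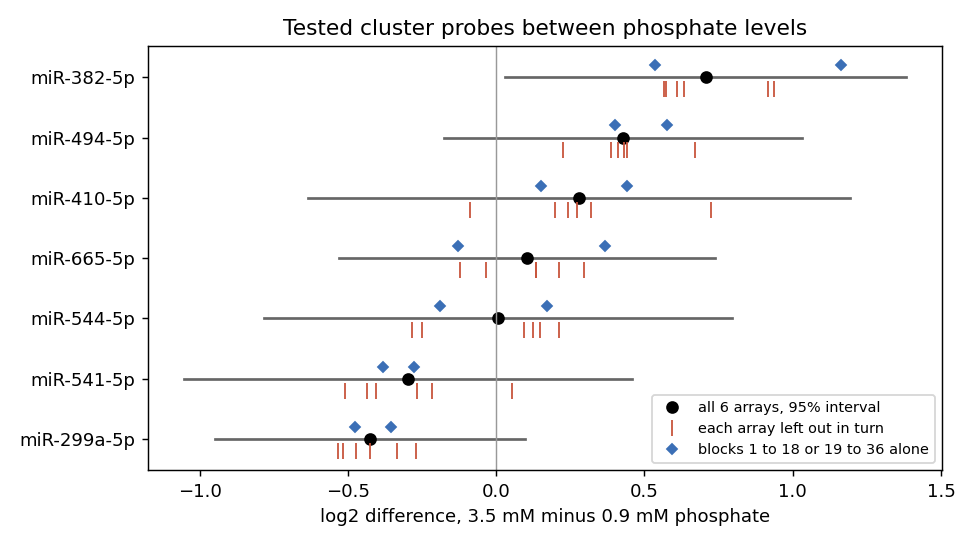
Log2 difference of high minus normal phosphate (x axis) for the 7 tested members, with the estimate and its 95% interval in black. Ticks show the value with each array left out in turn and diamonds the value from the spots of blocks 1 to 18 or 19 to 36 alone, and the marks of miR-410-5p, miR-665-5p, miR-544-5p and miR-541-5p fall on both sides of 0.

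The 3 members bright on 1 or 2 arrays also overlapped. The arrays of miR-300-5p read 1281, 3469 and 2872 units at normal and 2195, 2107 and 3119 units at high phosphate. Those of miR-673-3p lay between 1390 and 2115 units except for 4308 units on high phosphate replicate 1. Those of miR-434-3p, encoded antisense to Rtl1, read 1050, 1925 and 1423 units at normal and 1304, 1894 and 1855 units at high phosphate.

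A fit without the filter gave a value for all 90 members, most of them near the background of the array. The high phosphate mean was above the normal one for 46 and below it for 44, against 48.7% above over all 1118 mouse probes. The median log2 difference was 0.0013 for members and -0.0021 for all mouse probes. The offset of 50 added in the background step draws the log2 differences of dim probes toward 0. After adjustment 0 members passed (0% of all), with a lowest adjusted p of 0.776 in limma. An unadjusted p under 0.05 was found for 6 members (6.67%), against 5.64% of all mouse probes, and all 6 had a higher mean, against 3.22% of all mouse probes with such a p and a higher mean. That count ran from 0 to 12 as single arrays were dropped, with 12 without normal phosphate replicate 2, 9 without high phosphate replicate 2 and 0 without normal phosphate replicate 1 or high phosphate replicate 3. Normal phosphate replicate 2 was the highest normal array for 56 of the 90 members, against 52.2% of all mouse probes, and for 54 of the 83 untested ones, against 54.3%.

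Of these 6, miR-370-5p, from within Rian, had the largest log2 difference. It read 71.5, 332 and 90 units at normal and 455, 491 and 1025 units at high phosphate, all below the threshold. The groups did not overlap, as for 7 of the 90 members after normalization (8.68% of all mouse probes) and 4 before it (8.59%). The high arrays were the higher ones in 3 of those 7 (3.94%). The log2 difference was 1.64 (SE 0.48, limma adjusted p = 0.776). Its 3p partner miR-370-3p read 190, 127 and 173 units at normal and 324, 119 and 120 units at high phosphate. For miR-411-3p the arrays read 170, 744 and 214 units at normal and 913, 716 and 1251 units at high phosphate, so normal phosphate replicate 2 lay within the high group, with a log2 difference of 1.33 (SE 0.52, limma adjusted p = 0.776). The probe for miR-379-3p, which shares its seed, read at most 21.5 units.

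For miR-154-5p the arrays read 605, 1156 and 702 units at normal and 1606, 1064 and 1464 units at high phosphate, again with overlap through normal phosphate replicate 2, and the log2 difference was 0.77 (SE 0.27, limma adjusted p = 0.776). The other 3 of the 6 were dimmer, and no log2 difference is given for them here. They read 10.5 to 83.8 units for miR-539-5p, 13.2 to 67.5 units for miR-541-3p and 73.5 to 160 units for miR-540-3p. Of these only the groups of miR-541-3p stood apart before normalization. After it those of miR-539-5p and miR-540-3p stood apart and those of miR-541-3p did not. Among untested members with a lower mean the smallest unadjusted p belonged to miR-667-3p, which read 165, 203 and 225 units at normal and 125, 208 and 128 units at high phosphate, with overlapping groups. It was followed by miR-377-3p, miR-376c-5p, miR-493-5p and miR-379-5p, which read between 11.8 and 343 units, each with a limma adjusted p of 0.776.

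Of the 4 miRNAs tied to vessel growth in mouse ischaemia, miR-494 alone had a tested arm, the 5p one. Which arm that earlier work concerns was not looked up here, so both are given for the other 3. For miR-329-5p the arrays read 425, 836 and 607 units at normal and 617, 949 and 887 units at high phosphate, with a log2 difference of 0.37 (SE 0.24). The probe for miR-487b-5p read 388, 742 and 581 units at normal and 441, 884 and 569 units at high phosphate, and that for miR-495-5p 108, 412 and 187 units at normal and 239, 475 and 529 units at high phosphate. The groups overlapped for all 3. Their 3p arms averaged 41.1 units for miR-329-3p, 322 units for miR-487b-3p and 0.417 units for miR-495-3p over the 6 arrays. Groups also overlapped for miR-668-3p, which read 425, 1037 and 696 units at normal and 596, 1022 and 916 units at high phosphate.

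**Figure D4:**
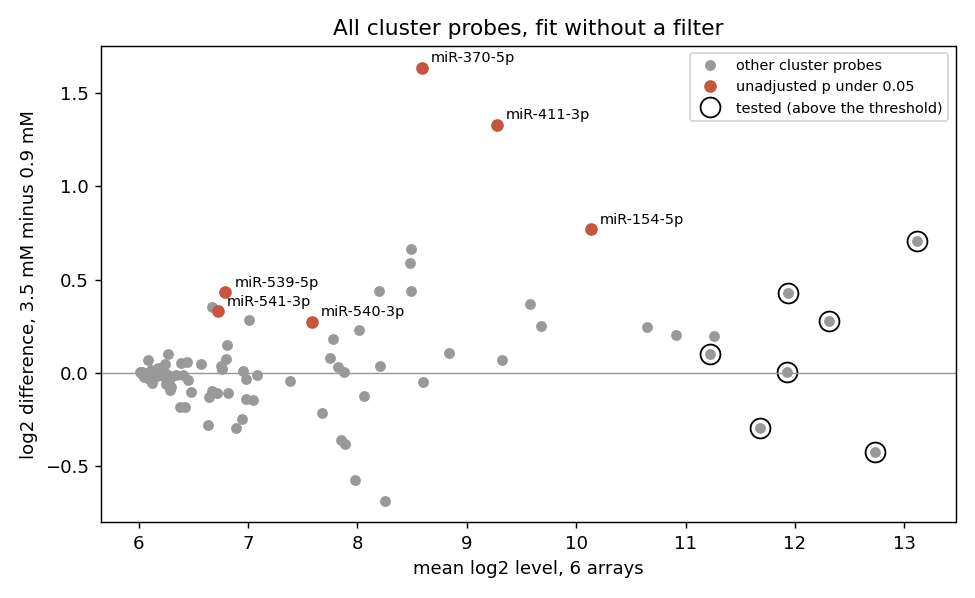
Log2 difference of high minus normal phosphate (y axis) against the mean log2 level over the 6 arrays (x axis) for all 90 cluster probes, from the fit without a filter. The 6 probes with an unadjusted p under 0.05 are red and named, all above 0, and the 7 tested probes are circled at the bright end.

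Median differences by position were small, while single probes ranged more widely. Most of these probes were dim, and the offset of 50 draws the log2 differences of dim probes toward 0. Small medians are thus partly set by the processing. In the fit without a filter the median log2 difference was 0.040 over the 10 probes from miR-770 to miR-665 (-0.28 to 0.27). It was -0.057 over the 10 from miR-431 to miR-136 (-0.68 to 0.28). Over the 4 of miR-341 and miR-370 it was -0.0010 (-0.18 to 1.64), and over the 66 from miR-379 to miR-410 it was 0.0013 (-0.57 to 1.33). Further miRNAs of the cluster, outside the listed members, had 20 probes, of which 11 were above and 9 below 0 in that fit. The 1 tested among them, miR-3070-5p, read 6980, 6425 and 8633 units at normal and 5433, 6950 and 4708 units at high phosphate, with overlapping groups and a log2 difference of -0.21 (SE 0.22, limma adjusted p = 0.873). The next, miR-3072-3p, read between 1313 and 2043 units and was below the threshold on every array.

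In the authors' deposited table, 2 of the 80 members with a p-value had one under 0.05, miR-541-3p with a fold of 2.38 (p = 0.0320) and miR-679-5p with a fold of 1.24 (p = 0.0348), against 39 of 1029 probes (3.79%) in all. For miR-382-5p the authors' deposited table gave a fold of 1.36 and for miR-370-5p a fold of 4.01, and the lowest false discovery rate of a member was 0.794. A fold above 1 was given there for 59 of 85 members with a fold and for 596 of 1042 mouse probes. That split differs from 46 of 90 above. With median scaling and no filter, chosen after seeing the data, 30 of 90 members had a higher mean, against 30.2% of all mouse probes.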

How the data were processed

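The 6 arrays were 1-colour (dye Hy3), and for each spot the authors deposited 2 intensities, the foreground and its excess over the local background, per the file headers. No source used here names the scanner or its software. The authors' deposited normalized intensities correspond to a probe's combined spot signal divided by a factor per array of 319 to 344.5 units, as found by setting them against the spots, and were an alternative only. Per probe, the authors deposited a fold or ratio between groups with its p-value and false discovery rate. Another 12 intensity columns of that table were not used.

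From these intensities, limma 3.58.1 in R 4.3.3 removed background by normexp with an offset of 50. The 4 spots per probe were then averaged, quantile normalization used the mouse and viral miRNA probes together, and values were put on the log2 scale. Mouse probes above the 95th percentile of the 57 viral probes on at least 3 arrays were tested with lmFit and eBayes, 2-sided, without a batch term, and p-values were adjusted by Benjamini-Hochberg over all 129 tested probes, at 0.05. The test was tried on simulated data. Precision is limited by having 3 arrays per group. The members and lists were chosen with earlier results of these data known. Named probes were the tested members and their opposite arms, the 10 untested members with the highest mean signal, the 5 untested members with the smallest p in each direction without a filter, and up to 2 further cluster miRNAs; the remaining probes named were chosen after their values were seen. Sequences and genomic order came from RefSeq. Alternatives covered background, normalization, filter, spots, deposited values, a replicate block and leaving out each array.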

Additional observations from a re-analysis of the deposited data

How the results depend on the processing

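Under every planned and added alternative 0 members passed limma after adjustment, including the replicate block (0 members, lowest adjusted p 0.488, median 0.10). With Hy3 scaling 7 of all 129 probes passed, and 4 of 7 members had an unadjusted p under 0.05 (lowest adjusted p 0.0611). Deviations of same-numbered arrays correlated at r = 0.22, 0.026 and -0.18 for numbers 1 to 3. Differently numbered arrays gave r from -0.36 to 0.45. So few values cannot show whether the numbers pair the samples, and no label says so. With median scaling and no filter, chosen after seeing the data, the median log2 difference was -0.18 over all 90 members. Over all mouse probes that median was -0.20. The median log2 difference of tested members was 0.71 with scaling to spike controls and 0.76 with scaling to Hy3 spots. It was -0.13 with the spots of blocks 1 to 18 and 0.37 with those of blocks 19 to 36, also added later, and -0.0011 with background subtraction. Leaving out 1 array moved it between -0.087 and 0.21, and without the filter between -0.013 and 0.011. The difference in bright members per array, 0.67, was 3.67 at the threshold of the Empty spots and 3.67 at a fixed 50 units. It ran from -0.17 to 1.33 when 1 array was left out. Counts of all mouse probes were also higher at high phosphate. At the threshold of the Empty spots the mean per array was 954 at normal and 998 at high phosphate, beside 77 and 80.7 members. At the viral threshold it was 117 and 125 mouse probes. All mouse probes were not counted at 50 units. Their median per array averaged 93.2 units at normal and 110 units at high phosphate. Single members changed direction as follows: with background subtraction miR-665-5p stood at -0.0011 and miR-544-5p at -0.18; miR-544-5p was -0.092 with median scaling, -0.11 without normalization, -0.071 with the deposited values and -0.19 with blocks 1 to 18 alone, where miR-665-5p was -0.13; with spike and Hy3 scaling miR-541-5p was 0.23 and 0.28 and miR-299a-5p 0.039 and 0.094. Leaving out 1 array gave -0.29 to 0.21 for miR-544-5p, -0.12 to 0.30 for miR-665-5p, -0.087 to 0.72 for miR-410-5p and -0.51 to 0.054 for miR-541-5p. The cause of each change was not tested. The dimmest members lie too near background for a fold.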
